A study of Mus musculus with 2 samples.

Results

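The genes described here are the 3 members of the amyloid precursor protein family, App, Aplp1 and Aplp2, and the 3 genes of the clathrin coat, Clta, Cltb and Cltc, with the alternative exons they carry. They were taken by gene name from the transcript tables of 2 long-read libraries, 6 of 18111 annotated genes with at least 1 read. Their multi-exon transcript models, the chains of exons that the authors assembled from the reads, were then classed by which annotated alternative exons they include or skip. An alternative exon was an internal exon of an annotated transcript that lies wholly within an intron of another annotated transcript of the same gene. The 6 genes have 12 such exons with at least 20 informative reads, that is reads that include or skip the exon, in each library, of 7653 over all genes. The 6 genes held 1270 reads on 103 models in replicate 1 and 1091 reads on 86 models in replicate 2, of which 97 and 56 reads were on models of a single exon and carry no splicing information.

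The study sequenced RNA of the adrenal gland of 14-day-old female mice of the strain B6CASTF1/J, a C57BL/6 by CAST hybrid of the first generation. There is 1 group with 2 libraries, biological replicates 1 and 2, and no treatment or second genotype, so the comparison the data allow is of replicate 1 with replicate 2. The label of the tissue sample of replicate 1 names 3 females and that of replicate 2 names a single female, while the descriptions of both libraries name 3 and both samples cite the same donor record. A test on the reads of 2 libraries compares those libraries and not animals or conditions.

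Replicate 1 held 1143111 reads and replicate 2 held 991731, of which 1065570 and 946553 fell in annotated genes. The libraries differ in tissue content. As shares of all gene reads, the 8 adrenal cortex markers summed to 5.45% in replicate 1 and 2.44% in replicate 2. The 10 chromaffin markers of the medulla summed to 1.35% and 0.527%. By the exact binomial test on reads, 8 of 8 and 8 of 10 were higher in replicate 1, against 17.9% of all 9211 genes tested. With TMM factors these counts were 7 and 8, and with spike-in scaling 7 and 7. With a coefficient of variation of 0.2 assumed between libraries they were 1 and 6. The 8 hepatocyte markers summed to 0.0716% in replicate 1 and 7.80% in replicate 2, and 8 skeletal muscle markers to 0.00854% and 0.212%, with Myh1 and Tnnt3 at 0 reads in replicate 1. Markers of brown and white adipocytes, 5 genes, were present in both libraries, with 0.674% in replicate 1 and 0.774% in replicate 2. The 10 neuron and nerve markers summed to 0.0126% in replicate 1 and 0.00866% in replicate 2, and none was at 0 in either library. In bulk tissue, fewer cells of a type and less RNA per cell cannot be told apart, so every value below is given for each library.

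App encodes a membrane protein that secretases cut, and Aplp1 and Aplp2 encode its relatives. In App, exon 7 encodes a Kunitz protease inhibitor domain, exon 8 a short stretch related to the OX-2 antigen, and exon 15 lies next to the stretch that encodes the membrane-proximal part. Neurons are known for App transcripts that lack exons 7 and 8, and other cells for transcripts that hold exon 7. Skipping of exon 15 of App, and of the matching short exon of Aplp2, is known to join sequence that forms an attachment site for chondroitin sulfate. Clathrin forms the coat of endocytic and other transport vesicles from heavy chains, encoded by Cltc, and light chains, encoded by Clta and Cltb. Both light chain genes have short exons known from brain neurons, and the short exon of Cltc is known from striated muscle.

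The sequences of the exons that decide these forms follow, 5′ to 3′ on the strand of the gene, from the GENCODE M21 transcript sequences, whose coordinates are those of mm10. The first pair is the inhibitor domain exon in both genes that have it, shown whole, with capitals at the positions where the 2 exons hold the same base. App exon 7 lies at chr16:85043576-85043743 and Aplp2 exon 7 at chr9:31167561-31167728, both on the minus strand. Both are 168 bases long and 114 of the 168 positions (67.9%) are identical.
App exon 7: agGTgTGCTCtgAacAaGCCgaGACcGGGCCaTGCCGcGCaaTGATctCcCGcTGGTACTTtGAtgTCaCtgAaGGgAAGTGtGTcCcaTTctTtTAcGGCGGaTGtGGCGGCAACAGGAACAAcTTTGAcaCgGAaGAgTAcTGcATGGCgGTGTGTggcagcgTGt
Aplp2 exon 7: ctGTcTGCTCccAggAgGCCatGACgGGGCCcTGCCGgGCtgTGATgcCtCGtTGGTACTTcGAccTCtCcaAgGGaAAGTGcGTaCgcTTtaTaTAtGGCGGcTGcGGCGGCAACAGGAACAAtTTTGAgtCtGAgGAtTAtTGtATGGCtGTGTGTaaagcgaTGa

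In the next 7 the exon is in capitals and the 9 bases on either side, from the neighbouring exons of the transcript, are in lower case. They are the other alternative exons of App, Aplp2, Clta, Cltb and Cltc described below, at chr16:85040251-85040307 (App exon 8), chr16:84971408-84971461 (App exon 15), chr9:31156190-31156225 (Aplp2 exon 14), chr4:44030215-44030268 (Clta exon 5), chr4:44031400-44031435 (Clta exon 6), chr13:54597026-54597079 (Cltb exon 5) and chr11:86701061-86701081 (Cltc exon 31). Clta lies on the plus strand and the other genes on the minus strand. Clta exon 5 and Cltb exon 5 are both 54 bases long and share 37 of 54 positions (68.5%).
App exon 8: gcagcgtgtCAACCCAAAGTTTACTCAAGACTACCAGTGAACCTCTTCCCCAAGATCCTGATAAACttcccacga
App exon 15: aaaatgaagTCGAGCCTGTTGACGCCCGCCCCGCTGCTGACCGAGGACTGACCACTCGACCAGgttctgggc
Aplp2 exon 14: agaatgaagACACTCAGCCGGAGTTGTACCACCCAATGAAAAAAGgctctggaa
Clta exon 5: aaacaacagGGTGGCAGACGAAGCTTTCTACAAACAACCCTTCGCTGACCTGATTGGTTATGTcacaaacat
Clta exon 6: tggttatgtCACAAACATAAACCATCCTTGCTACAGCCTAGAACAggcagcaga
Cltb exon 5: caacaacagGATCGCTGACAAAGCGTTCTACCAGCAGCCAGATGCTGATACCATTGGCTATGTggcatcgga
Cltc exon 31: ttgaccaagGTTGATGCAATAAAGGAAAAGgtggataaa

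The last pair shows what is joined when App exon 15 or Aplp2 exon 14 is left out, with the 12 bases before the junction in capitals and the 12 after it in lower case.
App junction without exon 15: CCGAAAATGAAGgttctgggctga
Aplp2 junction without exon 14: CTGAGAATGAAGgctctggaatgg

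All 9 exons printed above have a length that is a multiple of 3, so their inclusion or skipping keeps the reading frame. Among the 12 tested exons of the 6 genes 11 had such a length, the exception being App exon 16, against 41.6% of all 7653 tested exons and 53.9% of the 846 with a mean inclusion of 10 to 90%.

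App reads in both libraries mostly held the inhibitor domain exon, while exons 8 and 15 were each left out of a large share. App (ENSMUSG00000022892.11, mm10 chr16:84949685-85173766, minus strand) had 278 reads in replicate 1 and 223 in replicate 2, or 261 and 236 counts per 1e6 gene reads (CPM), a mean of 248 ± 17.9 CPM (SD, n = 2). Of these, 268 reads in replicate 1 and 220 in replicate 2 were on multi-exon models. Counts are whole reads and are not divided by transcript length, so levels are compared between libraries and not between genes.

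Exon 7 of App was included in 220 of 246 informative reads in replicate 1, 89.4% (exact Clopper-Pearson 95% interval 84.9 to 93.0), and in 186 of 202 in replicate 2, 92.1% (87.5 to 95.4), a mean of 90.8 ± 1.87% (SD, n = 2). The intervals of both libraries overlap. Reads carry no molecular identifiers, so these and all other intervals and limits cover counting error only. Exon 8 of App was included in 140 of 252 reads in replicate 1, 55.6% (49.2 to 61.8), and in 118 of 207 in replicate 2, 57.0% (49.96 to 63.8), a mean of 56.3 ± 1.02%. Exon 15 of App was included in 167 of 265 reads in replicate 1, 63.02% (56.9 to 68.8), and in 135 of 216 in replicate 2, 62.5% (55.7 to 69.0), a mean of 62.8 ± 0.367%. The remaining 3 alternative exons of App, numbers 14, 16 and 17, were included in every informative read of replicate 1 and in all but 1 read of replicate 2.

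**Figure D1:**
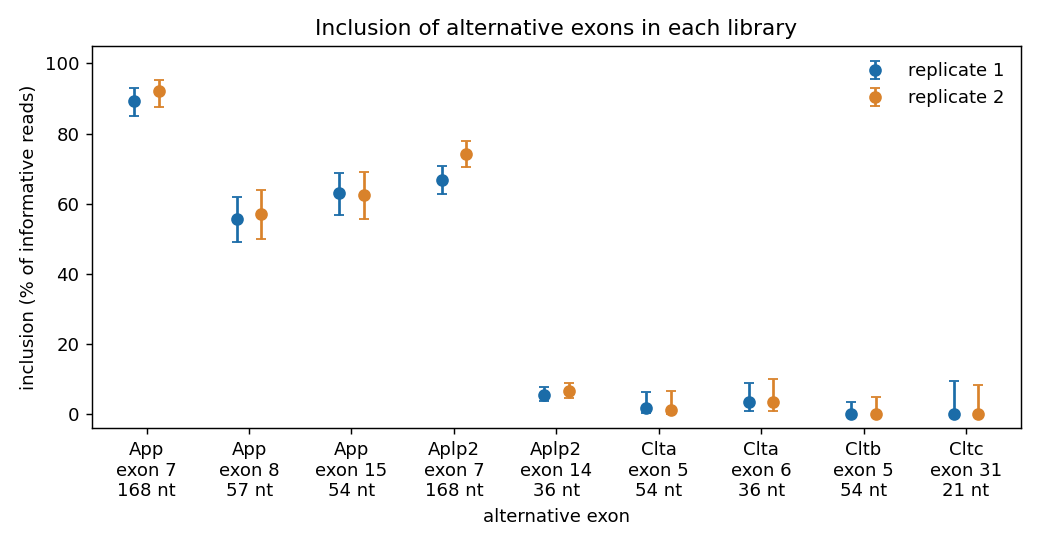
Percent of informative reads (y axis) that include each of 9 alternative exons (x axis, with exon length in nt) in replicate 1 (blue, left) and replicate 2 (orange, right), with exact 95% binomial intervals. App exon 7 lies at 89.4% and 92.1%, App exons 8 and 15 and Aplp2 exon 7 lie between 55.6% and 74.2%, and Aplp2 exon 14 and the clathrin exons lie at or below 6.55%.

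Because a long read shows the exons of 1 molecule together, the combinations can be counted. Exon 8 of App was seen only together with exon 7. In replicate 1, 137 reads held both exons, 83 held exon 7 without exon 8, 26 held neither and 0 held exon 8 without exon 7. In replicate 2 the numbers were 114, 72, 16 and 0. By a limit of 3 counts, the 0 allows up to 2.19% of the 137 reads with exon 8 in replicate 1 to lack exon 7. In replicate 2 it allows up to 2.63% of the 114. By Fisher's exact test, two-sided, with Benjamini-Hochberg adjustment over all exon pairs of all genes in a library, the 2 exons went together in replicate 1 (log2 odds ratio 6.45, adjusted p = 4.93e-09) and in replicate 2 (5.70, adjusted p = 1.20e-05). The size of these ratios depends on the 0.5 reads added to each cell of the table. Pairs that passed made up 16.1% of the 2952 tested in replicate 1 and 24.0% of the 2118 tested in replicate 2, in either direction.

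Exon 15 of App was used at similar rates on reads with and without exon 8, within wide intervals. In replicate 1 it was on 62.9% of the reads with exon 8 and 61.6% of those without, a difference of 1.25 points (95% interval -10.6 to 13.2), and in replicate 2 on 63.6% and 59.1%, a difference of 4.47 points (-8.74 to 17.7). Fisher's exact test with the same adjustment gave p = 1 in replicate 1 and 0.966 in replicate 2. With and without exon 7 the shares were 61.4% and 69.2% in replicate 1 and 62.2% and 43.8% in replicate 2, with differences of opposite sign (-7.87 and 18.4 points) and exact tests that did not pass (adjusted p = 1 and 0.391). Only 26 reads in replicate 1 and 16 in replicate 2 lacked exon 7, which limits this comparison. Among reads of annotated models alone, which cannot hold the combination without all 3 exons, exon 15 was less frequent on reads with exon 7 in replicate 1 (log2 odds ratio -4.48, adjusted p = 0.00184 by Fisher's exact test).

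Of the possible combinations of App exons 7, 8 and 15, 6 were seen, and the most frequent was the one with all 3 exons. It took 85 of 246 reads in replicate 1, 34.6% (28.6 to 40.9), and 71 of 201 in replicate 2, 35.3% (28.7 to 42.4), and is annotated as App-206. Transcripts with exons 7 and 8 but not 15 took 52 and 43 reads, 21.1% in replicate 1 and 21.4% in replicate 2. Those with 7 and 15 but not 8 took 50 and 44 reads, 20.3% and 21.9%, and those with exon 7 alone 33 and 27 reads, 13.4% in each library. The intervals of both libraries overlap for each of these 4 combinations with exon 7.

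The forms of App without the inhibitor domain were the scarce ones. The form with exon 15 alone, App-201, which is the form known from neurons, had 18 reads in replicate 1, 7.32% (4.39 to 11.3), and 7 reads in replicate 2, 3.48% (1.41 to 7.04), or 16.9 and 7.40 CPM. Its intervals in the libraries overlap. The form without any of the 3 exons had 8 reads in replicate 1, 3.25% (1.41 to 6.31), and 9 reads in replicate 2, 4.48% (2.07 to 8.33). No coding transcript of GENCODE M21 has this combination. Beside the lower share of App-201 in replicate 2 stand the lower sums of chromaffin and of neuron markers there given above, whose part in it was not tested. Much of the difference in the neuron sum is Snap25 (48 reads in replicate 1 and 15 in replicate 2). Without it the other 9 markers sum to 0.00807% in replicate 1 and 0.00708% in replicate 2, and Elavl4, Gap43, Nefl and Nefm had more reads in replicate 2.

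**Figure D2:**
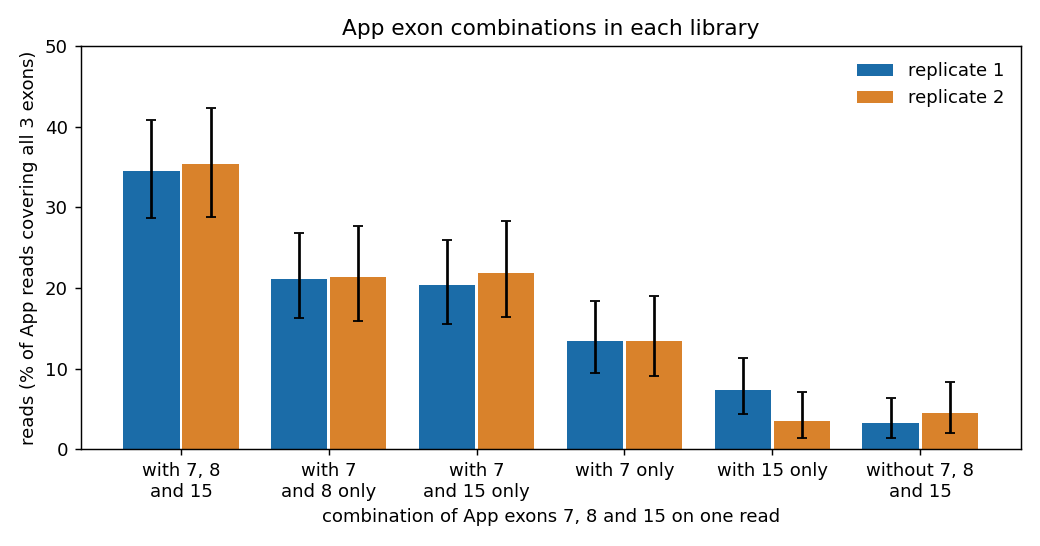
Share of App reads (y axis, % of reads that cover exons 7, 8 and 15) with each combination of these exons (x axis) in replicate 1 (blue, left) and replicate 2 (orange, right), with exact 95% binomial intervals. The combination with all 3 exons is the most frequent (34.6% and 35.3%), and the 2 without exon 7 lie at or below 7.32% in both libraries.

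Aplp1, the family member that has no inhibitor domain and is mainly known from the nervous system, had few reads and 1 main form. Aplp1 (ENSMUSG00000006651.8, chr7:30434982-30445535, minus strand) had 65 reads in replicate 1 and 31 in replicate 2, or 61.0 and 32.8 CPM, a mean of 46.9 ± 20.0 CPM (SD, n = 2). A single annotated transcript took 58 of the 65 reads in replicate 1 and 29 of the 31 in replicate 2. No exon of Aplp1 met the definition of an alternative exon.

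The inhibitor domain exon of Aplp2 was in most of its reads, and its short exon 14 in few. Aplp2 (ENSMUSG00000031996.17, chr9:31149557-31211815, minus strand) had 613 reads in replicate 1 and 609 in replicate 2, or 575 and 643 CPM, a mean of 609 ± 48.2 CPM (SD, n = 2). Exon 7 of Aplp2 was included in 371 of 555 reads in replicate 1, 66.8% (62.8 to 70.8), and in 420 of 566 in replicate 2, 74.2% (70.4 to 77.8), a mean of 70.5 ± 5.20%. The difference, replicate 1 minus replicate 2, was -7.36 points (95% Newcombe interval -12.6 to -2.02), and the intervals of the libraries just overlap. The unadjusted p of Fisher's exact test was 0.00724, but with Benjamini-Hochberg adjustment over the 7653 exons the value was 1, so the difference did not pass.

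Exon 14 of Aplp2 was included in 31 of 572 reads in replicate 1, 5.42% (3.71 to 7.60), and in 38 of 580 in replicate 2, 6.55% (4.68 to 8.88), a mean of 5.99 ± 0.801%. With annotated models alone the mean was 1.76%, since no annotated coding transcript holds both exon 7 and exon 14. App exon 15, the matching exon of App, was at 62.8% on average, so that the form that skips the exon was the minority in App and the rule in Aplp2.

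On single molecules of Aplp2 the most frequent combination was exon 7 without exon 14. It took 348 of 555 reads in replicate 1, 62.7% (58.5 to 66.7), and 394 of 566 in replicate 2, 69.6% (65.6 to 73.4). Reads with neither exon numbered 177 in replicate 1, 31.9% (28.0 to 35.9), and 134 in replicate 2, 23.7% (20.2 to 27.4), with intervals that do not overlap. Combinations were not tested between the libraries, and these intervals are not adjusted. The reads are among the 184 in replicate 1 and 146 in replicate 2 that skip exon 7. Inclusion of that exon did not pass between the libraries. Reads with both exons numbered 23 and 26, 4.14% in replicate 1 and 4.59% in replicate 2, though no annotated coding transcript joins them, and reads with exon 14 alone numbered 7 and 12.

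The use of Aplp2 exon 14 did not differ detectably between reads with and without exon 7. In replicate 1 exon 14 was on 6.20% of the reads with exon 7 and 3.80% of those without, a difference of 2.40 points (95% interval -1.95 to 5.92). In replicate 2 it was on 6.19% and 8.22%, a difference of -2.03 points (-7.95 to 2.37). The signs are opposite and neither passed Fisher's exact test with adjustment over all pairs (adjusted p = 0.681 in replicate 1 and 0.806 in replicate 2). With annotated models alone the log2 odds ratios were -4.89 and -6.09 and both passed (adjusted p = 0.00230 and 2.42e-06 by the same exact test), since reads with both exons are then left out.

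Clathrin transcripts in both libraries were almost all of the form without the neuronal or muscle exons. Clta, which encodes light chain a (ENSMUSG00000028478.18, chr4:44004452-44032846, plus strand), had 114 reads in replicate 1 and 85 in replicate 2, or 107 and 89.8 CPM, a mean of 98.4 ± 12.2 CPM (SD, n = 2). Exon 5 of Clta was included in 2 of 113 reads in replicate 1, 1.77% (0.215 to 6.25), and in 1 of 84 in replicate 2, 1.19% (0.0301 to 6.46). Exon 6 of Clta was included in 4 of 113 reads in replicate 1, 3.54% (0.973 to 8.82), and in 3 of 84 in replicate 2, 3.57% (0.743 to 10.1). Both exons were skipped by 107 reads in replicate 1, 94.7%, and by 81 in replicate 2, 96.4%, and 1 read, in replicate 2, held both, the full brain form Clta-205. With models of at least 2 reads the means over both libraries were 0.901% for exon 5 and 1.35% for exon 6, in place of 1.48% and 3.56%.

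The first exon of Clta had 2 annotated donor sites 6 bases apart. The upstream site was used by 11 of 112 reads in replicate 1, 9.82% (5.01 to 16.9), and by 5 of 84 in replicate 2, 5.95% (1.96 to 13.3). The rest used the downstream site, and the intervals of both libraries overlap.

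Cltb, which encodes light chain b (ENSMUSG00000047547.14, chr13:54592401-54611344, minus strand), had 158 reads in replicate 1 and 98 in replicate 2, or 148 and 104 CPM, a mean of 126 ± 31.6 CPM (SD, n = 2). Its exon 5, the counterpart of Clta exon 5, was in 0 of 109 informative reads in replicate 1 and 0 of 73 in replicate 2. Those zeros allow inclusion of up to 2.75% in replicate 1 and 4.11% in replicate 2. Both limits lie above the inclusion of Clta exon 5, 1.77% in replicate 1 and 1.19% in replicate 2. The zeros therefore do not exclude a level that low in Cltb.

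Cltc, which encodes the heavy chain (ENSMUSG00000047126.17, chr11:86694351-86757565, minus strand), had 42 reads in replicate 1 and 45 in replicate 2, or 39.4 and 47.5 CPM, a mean of 43.5 ± 5.75 CPM (SD, n = 2). Its 21-base exon 31 was in 0 of 37 informative reads in replicate 1 and 0 of 42 in replicate 2, which allows inclusion of up to 8.11% and 7.14%. Skeletal muscle markers reached 0.212% of the gene reads of replicate 2, and no read there held the exon known from muscle, within this limit. How many of the 42 reads came from muscle is not known, so this 0 says nothing about the exon in muscle. A junction of Cltc that is in no annotated transcript, chr11:86697341-86702192, had 3 reads in replicate 1 and 2 in replicate 2. It spans exon 31, so these reads are among those counted as skipping that exon.

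Between the libraries, 0 of the 12 exons of the 6 genes passed Fisher's exact test after adjustment, and 1, Aplp2 exon 7, had an unadjusted p under 0.05. Over all genes 11 of 7653 exons passed (0.144%), and 125 (1.63%) had an unadjusted p under 0.05. Exons of Khk, Ndrg2, Tpm1 and Tpm2 were among the 11. Inclusion of Khk's exon, for instance, was 3.08% in replicate 1 and 82.2% in replicate 2. Among the 846 exons with a mean inclusion of 10 to 90%, the median difference between the libraries in size was 6.38 points, against 1.45 points for App exon 8, 0.519 points for App exon 15 and 7.36 points for Aplp2 exon 7. App exon 7, with a mean inclusion above that range, differed by 2.65 points, and over all 7653 exons the median was 0. The 846 exons were not matched to these by read number. They needed only 20 informative reads in each library, while App exons 8 and 15 and Aplp2 exon 7 had 207 to 566. Fewer reads bring more counting error, so the median does not show whether these exons were more or less stable than others.

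**Figure D3:**
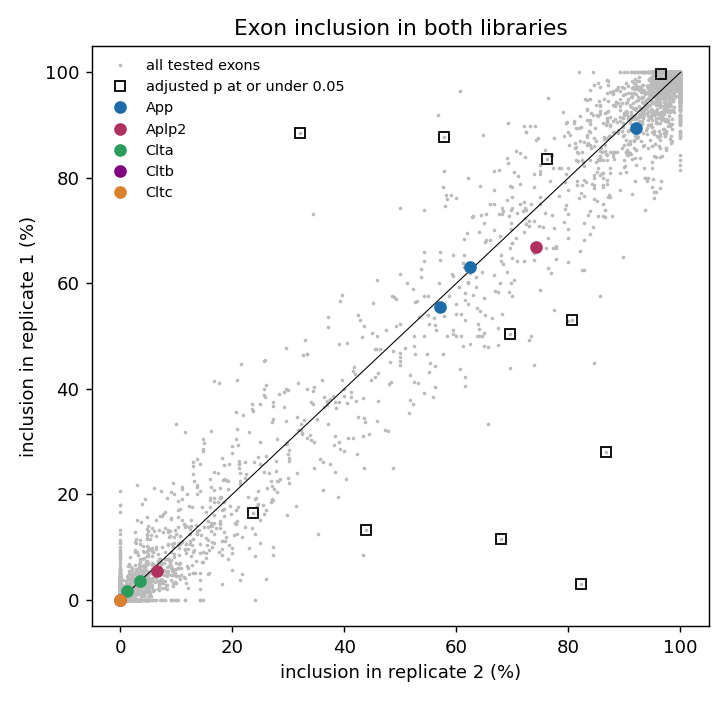
Inclusion of each of the 7653 tested alternative exons in replicate 1 (y axis, %) against replicate 2 (x axis, %). The exons of App, Aplp2, Clta, Cltb and Cltc are coloured points, except App exons 14, 16 and 17, which are not coloured. Exons with an adjusted p at or under 0.05 by Fisher's exact test are open squares, and the line is equal inclusion. The coloured points lie close to the line, Aplp2 exon 7 (66.8% and 74.2%) farthest from it, and none is in a square.

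In level, Aplp1 and Cltb were higher in replicate 1 and the other 4 genes did not pass the test. The log2 ratio of replicate 1 over replicate 2 was 0.89 for Aplp1 (SE 0.313, from 65 and 31 reads) and 0.52 for Cltb (SE 0.185, from 158 and 98 reads), with adjusted p of 0.0190 and 0.0254 by an exact conditional binomial test with Benjamini-Hochberg adjustment over 9211 genes. Genes higher in replicate 1 were 1646 of the 9211 (17.9%) and genes lower in replicate 1 were 790 (8.58%), so that 2 of 6 is to be read against the first share. The ratio was 0.15 for App (SE 0.130, adjusted p = 0.447) and -0.16 for Aplp2 (SE 0.0825, adjusted p = 0.141) by the same exact test. Clta had 0.25 (SE 0.206, adjusted p = 0.405) and Cltc -0.27 (SE 0.308, adjusted p = 0.582).

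**Figure D4:**
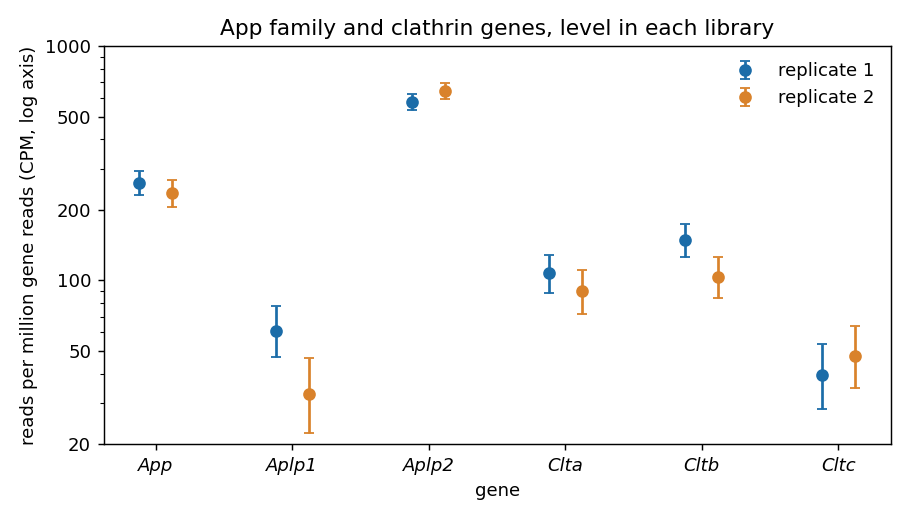
Level of each gene (y axis, CPM, log axis) in replicate 1 (blue, left) and replicate 2 (orange, right), with exact 95% binomial intervals. Replicate 1 lies above replicate 2 for Aplp1 (61.0 and 32.8 CPM) and Cltb (148 and 104 CPM), with intervals that do not overlap for Aplp1 and just touch for Cltb, and the intervals overlap for the other 4 genes.

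These ratios depend on how the libraries are scaled. With total gene reads the median log2 ratio of all 9211 genes was 0.28, and it was 0.031 with TMM factors, 0.036 with DESeq2 size factors and -0.31 with the spike-in reads. Relative to that median, Aplp1 and Cltb were above it, and App, Aplp2, Clta and Cltc below it, under total gene reads. Neither Aplp1 (log2 ratio 0.64 with TMM, adjusted p = 0.153 by the exact binomial test) nor Cltb (0.27, adjusted p = 0.395) passed under TMM. Aplp2 passed as lower in replicate 1 under TMM (-0.41, adjusted p = 9.28e-06). With spike-in reads App (-0.44, adjusted p = 0.00525), Aplp2 (-0.75, adjusted p = 4.13e-18) and Cltc (-0.86, adjusted p = 0.0336) were lower in replicate 1 by the same exact test. The split of all called genes also turned, with 643 higher and 1093 lower in replicate 1 under TMM and 170 and 2071 with spike-in reads. The exon shares above do not depend on scaling.

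**Figure D5:**
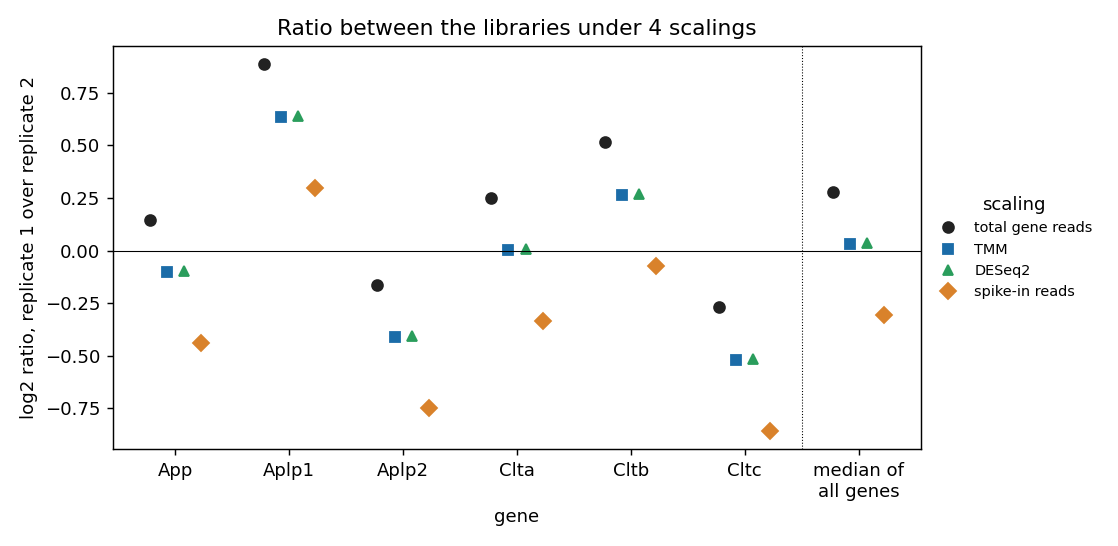
Log2 ratio of replicate 1 over replicate 2 (y axis) of the 6 genes and the median of all tested genes (x axis) under scaling by total gene reads (circles), TMM (squares), DESeq2 size factors (triangles) and spike-in reads (diamonds). Aplp1 is above 0 and Aplp2 and Cltc are below 0 under all 4, while App, Clta and Cltb lie on both sides of 0 or at it.

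Of 24 genes for secretases that cut App and for its binding partners, 19 were tested. None was higher in replicate 1, against 17.9% of all genes, and 1 (5.26%) was lower, against 8.58%. The lower one was Bace2, a protease that cuts App (12 reads in replicate 1, 26 in replicate 2, log2 ratio -1.25, SE 0.495, adjusted p = 0.0367 by the exact binomial test). The median of the list was 0.16, against 0.28 for all genes. With no filter on low counts and with a spread of 0.2 assumed between libraries 0 were lower, and with spike-in scaling 6 were. Itm2b, a membrane protein that binds App, had 1438 reads in replicate 1 and 1187 in replicate 2 (0.11). Ncstn, a subunit of gamma-secretase, had 96 and 76 reads (0.16), and Apba3, an adaptor that binds the App tail, had 93 and 61 (0.43), and none of these 3 passed.

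Of 47 genes for clathrin, its adaptors and accessory proteins, the 3 clathrin genes included, 35 were tested. In replicate 1, 10 (28.6%) were higher and 0 lower, against 17.9% and 8.58% of all genes, with a list median of 0.27, against 0.28 for all genes. Hspa8, the chaperone that uncoats clathrin vesicles, had 1806 reads in replicate 1, against 1334 in replicate 2 (log2 ratio 0.27, SE 0.0521, adjusted p = 3.58e-06 by the exact binomial test). Its ratio is close to the median of all genes and not above it. Dab2, an endocytic adaptor, had 274 and 226 reads (0.11), and Dnm2, the dynamin that cuts vesicles off the membrane, 164 and 119 (0.29), and neither passed. Under TMM the counts were 1 higher and 1 lower, with a median of 0.017, and with spike-in scaling 1 and 6. With the assumed spread 1 was higher. Among the 10 were Snap91, the clathrin assembly protein known from neurons (29 reads in replicate 1 and 8 in replicate 2), and Sh3gl3, an endophilin (22 and 3 reads), the largest ratios of the list, chosen for naming after their values were seen.

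Of 25 splicing regulators known from neural exons 12 were tested, and 2 (16.7%) were higher and 0 lower in replicate 1, against 17.9% and 8.58% of all genes, with a median of 0.46, against 0.28. Ptbp1, which represses many neuronal exons in other tissues, had 117 reads in replicate 1, against 62 in replicate 2 (log2 ratio 0.74, SE 0.226, adjusted p = 0.00551 by the exact binomial test). Khdrbs1, a relative of Khdrbs3, had 96 and 50 reads (0.76, adjusted p = 0.0109 by the same exact test). Under TMM 0 were higher and 1 was lower, and the median was 0.21. With the assumed spread 0 were called, and with spike-in scaling 2 were lower. Khdrbs3 had 116 and 108 reads (-0.068) and Srsf11, a serine and arginine rich factor, 100 and 66 (0.42), without passing. The regulators most restricted to neurons had few reads in both libraries. Ptbp2 had 13 in replicate 1 and 8 in replicate 2, Nova1 5 and 3, Rbfox3 12 and 4 and Srrm4 0 and 2, while Elavl2 and Elavl3 had none.

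For each member the gene nearest to it in level over both libraries was Arf5 for App (281 reads in replicate 1 and 221 in replicate 2), Arl6ip5 for Aplp1 (64 and 31), Cox5a for Aplp2 (629 and 609), Tmbim4 for Clta (115 and 85), Pfdn5 for Cltb (157 and 98) and S100b for Cltc (42 and 45, the same counts as Cltc). Likeness is the Euclidean distance in log2 CPM over 2 libraries among genes of at least 50 summed reads, so it says no more than that these pairs of values are close.

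Most member reads matched an annotated transcript. The share of reads on annotated models was 80.9% in replicate 1 and 81.2% in replicate 2 for App, 89.2% and 93.5% for Aplp1, 82.5% and 85.4% for Aplp2, and 97.4% and 97.6% for Clta. It was lower for Cltb, 65.2% and 74.5%, where single-exon reads make up most of the rest, and for Cltc, 59.5% and 77.8%, where fragments of the annotated transcript do. Intron 6 of Aplp2, just before the inhibitor domain exon, was retained in 3 reads and spliced in 371 in replicate 1, and retained in 4 and spliced in 422 in replicate 2.

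Antisense models, which the authors place on the opposite strand within a gene, held 25 reads in replicate 1 and 20 in replicate 2 within Aplp2, and 10 and 6 within Cltc. They held 1 read in each library within App and within Clta, and 0 within Aplp1 and Cltb. These reads were not counted for the 6 genes.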

How the data were processed

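Long-read RNA-seq was analysed for replicate 1 and replicate 2 of 1 group. Per the file headers, the authors deposited, for each library, a table of read counts per transcript model and an annotation of the models on mm10 with GENCODE M21. As deposited, counts were unscaled whole reads of 1 library each. Class names are those of TALON. Its version, the aligner and the filters were not given in the sources used here. Coordinates in the deposited annotations were checked against GENCODE M21, and 42 of 42 annotated transcripts of the 6 genes had the same exons.

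Reads of all classes were summed per gene and divided by gene reads (CPM). A two-sided exact conditional binomial test compared the libraries for genes of 20 or more summed reads. Fisher's exact test (two-sided) was used for exons with 20 or more informative reads in each library, and within a library for exon pairs on 20 or more reads. P-values were adjusted by Benjamini-Hochberg over all genes, exons or pairs tested, with a threshold of 0.05. Log2 ratios have 0.5 reads added. Shares have Clopper-Pearson 95% intervals, and a count of 0 a limit of 3 counts (for a gene, 2.82 CPM and 3.17 CPM in replicates 1 and 2). The tests were checked on simulated reads. Tools were Python 3.11.15, scipy 1.17.1, pandas 2.3.3, R 4.3.3, edgeR 4.0.16 (TMM) and DESeq2 1.42.0 (size factors). Because nothing replicates a library, p-values cover counting error only. Named were all 6 genes, their alternative exons with enough reads, the 3 genes of highest mean CPM in each pathway list, and the gene nearest to each member. The members, lists and tests were chosen with earlier results of these data known. Alternatives in scaling, filters, model classes and tests were tried.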

Additional observations from a re-analysis of the deposited data

Results flagged for a closer look

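Reads without a splice junction lie outside the exon comparisons and were above the limit of 3 counts in both libraries at Aplp2 and Cltb. Aplp2 had 32 such reads in replicate 1 and 24 in replicate 2, all assigned to a model of only 3 bases at the 3′ end of the gene (chr9:31149557-31149559). Cltb had 49 in replicate 1 and 25 in replicate 2, on a model of 951 bases in replicate 1 and 969 bases in replicate 2 within its last exon, which is 31.01% and 25.5% of the reads of Cltb. Without models of this class the log2 ratio of Cltb (replicate 1 over replicate 2) was 0.42 in place of 0.52, and its adjusted p by the exact binomial test was 0.141. What these reads are was not tested.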

How the results depend on the processing

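The levels depend on scaling and the splicing shares much less. With TMM factors 643 genes were called higher in replicate 1, with DESeq2 size factors 656, with spike-in reads 170 and with a spread of 0.2 (coefficient of variation) assumed between libraries 67, against 1646; lower were 2071 with spike-in reads and 446 with the assumed spread, against 790. The log2 ratio (replicate 1 over replicate 2) with TMM, DESeq2 and spike-in scaling was -0.10, -0.10 and -0.44 for App, 0.64, 0.64 and 0.30 for Aplp1, -0.41, -0.41 and -0.75 for Aplp2, and 0.27, 0.27 and -0.072 for Cltb. With spike-in scaling it was -0.34 for Clta and -0.86 for Cltc. With the assumed spread Aplp1 (0.89) and Cltb (0.52) did not pass, nor did Cltb without single-exon genomic models (0.42).

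The beta-binomial test called 4 exons in place of 11. With annotated models only, the difference of Clta exon 6 was 0.29 points, and with models of at least 2 reads 2.70 points, in place of -0.03. With annotated models only, 176 pairs were called in replicate 1 and 194 in replicate 2. The log2 odds of App exons 7 and 15 were then -4.48 in replicate 1 and -3.28 in replicate 2, of App exons 8 and 15 -0.21 and -0.32, and of Aplp2 exons 7 and 14 -4.89 and -6.09, and of these -4.48, -4.89 and -6.09 passed. That choice drops by construction the combinations no annotated transcript has. Clta exons 5 and 6 in replicate 2 then had 7.35 and passed (adjusted p = 0.0429 by Fisher's exact test, against 0.101 with all models), on 1 read with both exons. A minimum of 50 reads left 286 pairs in replicate 1, and at least 3 reads with and without each exon, chosen after seeing the data, 267 in replicate 2. App exons 7 and 8 also passed with annotated models only (log2 odds 5.89 in replicate 1 and 4.53 in replicate 2). No annotated coding transcript that covers them has exon 8 without exon 7, so that choice could not have shown otherwise. Under the other alternatives the pair kept its call in both libraries, with log2 odds of 5.49 to 6.45. Aplp2 exon 7 did not pass between libraries under any of 9 alternatives (adjusted p of 0.2905 to 1). In replicate 2, calls of pairs among App exons 14, 16 and 17 rest on 1 read.

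Leaving out either library gives the values of the other, as printed. The libraries hold 2 samples of 1 group. No paired analysis was possible because there is no second group. The read numbers limit what can be seen, above all in Cltc, Aplp1 and the clathrin exons at 0.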
